A study of Mus musculus with 4 samples.

Results

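The genes of the proteasome were followed through T cells taken from subcutaneous mouse tumors. They were defined by symbol: every measured gene beginning Psma, Psmb, Psmc, Psmd or Psme followed by a digit, without the immunoproteasome genes Psmb8, Psmb9 and Psmb10 and without pseudogenes. This rule, which uses no measured value, found 42 of the 32285 measured genes. They were 8 genes of the alpha ring (Psma), 8 of the beta ring (Psmb), 6 of the ATPase ring (Psmc), 14 Psmd genes, which encode subunits of the regulatory particle outside that ring and some of its assembly chaperones (among them Psmd5, Psmd9 and Psmd10), 5 proteasome activators (Psme) and Psmc3ip, a meiotic recombination gene whose symbol matches the rule although its product is not a proteasome subunit.

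All 4 libraries came from subcutaneous tumors grown by 105K cells, a Tsc2-deficient line from a renal tumor of a Tsc2+/- mouse, in the flanks of 6-week-old male wild-type C57BL/6J mice. The tumor cells stably carried either a non-targeting hairpin (sh-NC, the control) or one directed at Cd276, which encodes the checkpoint ligand B7-H3 (sh-B7-H3 (1), the knockdown). The T cells themselves carried no hairpin. Tumors of a group were pooled, live CD3+ cells were sorted and tagged with antibody barcodes, and each group gave 2 libraries of single-cell RNA and surface protein. Only the RNA was used here. The study describes the pooled tumors of a group as split into independent samples and calls these biological replicates. Its methods place the pooling of a group's tumors before the sort, so the spread between the libraries may be technical only, and p-values measure that spread and not the one between mice.

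The proteasome is a barrel that cuts proteins marked with ubiquitin into peptides. Alpha and beta rings form the core particle, in which Psmb5, Psmb6 and Psmb7 carry the chymotrypsin-like, caspase-like and trypsin-like active sites. A regulatory particle recognises, unfolds and feeds substrates into the core. The PA28 activator, made of the Psme1 and Psme2 products, caps the core instead, is induced by interferon gamma and favours peptides that load onto MHC class I, and under the same signal Psmb8, Psmb9 and Psmb10 take the places of Psmb5, Psmb6 and Psmb7. Activated T cells synthesise and degrade much protein while they divide.

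The start regions of these genes were searched for short motifs, and 4 stretches are shown as examples from genes with values below. They are an interferon-type element at Psme1 and Psmd4, and an antioxidant-type element, the kind bound by NRF1 and NRF2 (Nfe2l1 and Nfe2l2), at the catalytic genes Psmb5 and Psmb6. The stretches were picked with the results known, and Psmb5 and Psmb6 were not called for the knockdown within any class of cells. Each is a 30-base stretch of the gene strand, 5′ to 3′, from RefSeq on GRCm38.p6, with the motif in capitals.
Psme1 (chr14:55578493-55578522): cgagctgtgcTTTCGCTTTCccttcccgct
Psmd4 (chr3:95042675-95042704): ataaccaaccTTTCCATTTCtgtggcgcct
Psmb5 (chr14:54618023-54618052): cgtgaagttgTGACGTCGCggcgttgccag
Psmb6 (chr11:70525338-70525367): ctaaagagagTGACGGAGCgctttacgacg
Windows of 300 bases around the annotated start were searched on both strands for 35 of the 42 members and for 27025 genes in all. The interferon-type motif, GAAA followed after any pair of bases by GAAA (TTTC on the other strand), stood in 4 members (Psme1, Psmd4, Psmb3 and Psmd9), 11.4% of those searched, against 3.99% of all genes. The antioxidant-type motif TGACNNNGC (GCNNNGTCA) stood in 6 members, 17.1%, against 13.99% of all genes. The ETS-type motif CCGGAAG, or its reverse complement, stood in 13 members, 37.1%, against 9.93%, the CCAAT box (ATTGG) in 14 members, 40.0%, against 41.1%, and the gamma-activated type TTCNNNGAA, which reads the same on both strands, in Psmd2 alone, 2.86%, against 9.55%. Psme2, the partner of Psme1, was searched and matched none of these motifs. A match is a description of letters, and no site or cause is read from it.

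Between 7030 and 12112 cells were called per library, with 79224898 to 132820909 RNA UMIs (unique molecular identifiers, counted once per captured molecule). After limits on genes and mitochondrial share and removal of likely doublets (28.8 to 34.1% of the cells scored), 2936 to 6277 cells per library remained, with medians of 6331.5 to 8323 UMIs. Cells were called Cd8 (at least 3 UMIs of Cd8a and Cd8b1, none of Cd4 or Foxp3), Cd4 (a Cd4 UMI, none of Cd8a, Cd8b1 or Foxp3) or Foxp3 (UMIs of Cd4 and Foxp3, none of Cd8a or Cd8b1). Each was split at 20 UMIs of Ccl5, a chemokine of effector T cells: cells with at least 20 are called Ccl5-high here, and those with fewer Ccl5-low. Classes held 325 to 2240 cells per library for Ccl5-low and 106 to 894 for Ccl5-high Cd4 and Cd8 cells, 84 to 147 for Ccl5-low and 6 to 13 for Ccl5-high Foxp3 cells. Pairs of libraries shared 17 to 35 cell barcodes. Cd276 gave 9 to 11 UMIs over all called cells of each library, and since the hairpin acts in tumor cells that the sort removes, this does not check the labels.

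Levels are given as CPM, the UMIs of a gene scaled to a common total of UMIs per library and class. Summed over the 42 genes, Ccl5-low Cd4 cells held 4541 and 4501 CPM with sh-NC against 4251 and 4236 with sh-B7-H3 (1). Ccl5-high Cd4 cells held 6335 and 6035 CPM with sh-NC against 5334 and 5383 with sh-B7-H3 (1). In Ccl5-low Cd8 cells the sums were 4746 and 4697 CPM with sh-NC against 4374 and 4187 with sh-B7-H3 (1), and in Ccl5-high Cd8 cells 5400.1 and 5346 CPM with sh-NC against 5089 and 5059 with sh-B7-H3 (1). Thus in every library the share of all UMIs was higher in the Ccl5-high cells, and in each of the 4 classes both knockdown libraries lay below both control libraries. These sums include the abundant Psme1 and Psme2, so a lower sum does not show that most members fell. They are also shares of all UMIs, and other RNAs that change their share move them. Changes of single members, with another scaling, are given below. Ccl5-low Foxp3 cells (regulatory T cells by their marker) held 5844 and 5960.1 CPM with sh-NC against 5942 and 5567 with sh-B7-H3 (1), with the groups overlapping, and the small Ccl5-high Foxp3 class ranged from 4995 to 7658. Barcodes holding 10 to 100 UMIs, which carry free RNA, held members at 4340 to 4801 CPM, close to the level within Ccl5-low Cd4 and Cd8 cells and below that of Ccl5-low Foxp3 cells.

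Levels of different genes are set side by side here as UMIs, which count 3′ ends once per molecule and do not grow with gene length. Psme1 was the most abundant member in each class (458 to 603 CPM, mean of the 4 libraries), followed by Psmb1, Psme2, Psmb3, Psma2 and Psma7 in varying order. The PA28 genes Psme1 and Psme2 together made up 15.0 to 21.2% of the members' UMIs. The median member stood at 66.3 to 108 CPM. Spearman's rank correlation of the 42 levels between classes was 0.965 to 0.996, over genes read from the same libraries. At the other end, Psma8, a subunit of testis, had 1 UMI in the classes and Psmb11, the subunit of thymic cortical epithelium, stayed under 2 CPM in every class and library. The remaining 40 genes were tested in Cd4 and Cd8 cells. Psme2b is a near copy of Psme2 and overlaps another gene on its strand, so its counts are uncertain.

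Among the catalytic genes, Psmb5 in Ccl5-low Cd4 cells read 133 and 128 CPM with sh-NC against 139 and 145 with sh-B7-H3 (1), and in Ccl5-low Cd8 cells 149 and 143 CPM with sh-NC against 129 and 139 with sh-B7-H3 (1). Psmb6 read 130.2 and 132 CPM with sh-NC against 147 and 145 with sh-B7-H3 (1) in Ccl5-low Cd4 cells and 123 and 119.7 CPM with sh-NC against 126 and 131 with sh-B7-H3 (1) in Ccl5-low Cd8 cells. Psmb7 was the lowest of the trio, with 67.8 and 62.7 CPM with sh-NC against 65.05 and 60.2 with sh-B7-H3 (1) in Ccl5-low Cd4 cells. The immunoproteasome gene Psmb8, which replaces Psmb5, lay far above it, at 607 and 606 CPM with sh-NC against 614 and 642 with sh-B7-H3 (1) in the same cells.

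**Figure D1:**
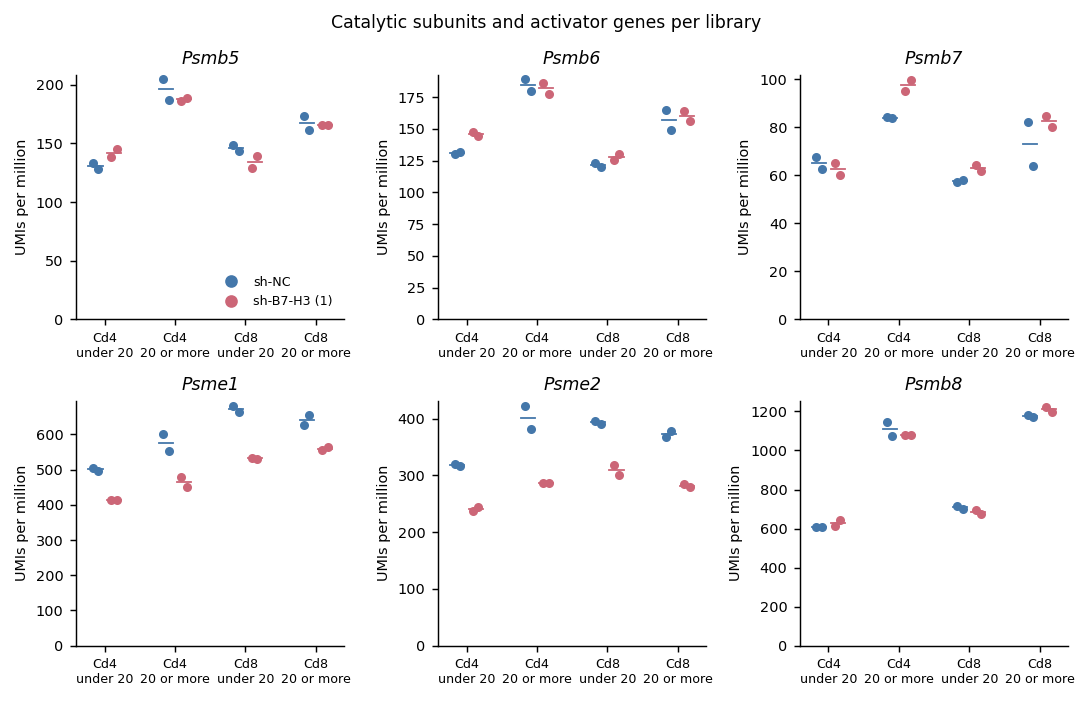
Level of the catalytic genes Psmb5, Psmb6 and Psmb7, the PA28 genes Psme1 and Psme2 and, for comparison, Psmb8, in CPM (vertical axis, from 0) by class of cell (horizontal axis, split at 20 Ccl5 UMIs); each point is 1 library and each short line the mean of the 2 libraries of a group. Psme1 and Psme2 are lower in both sh-B7-H3 (1) libraries than in both sh-NC libraries in all 4 classes shown, whereas the Psmb5 groups overlap in both Ccl5-high classes.

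Against the knockdown, the PA28 genes were the members called in most classes. Psme1 lies at chromosome 14, 55578123 to 55581529 (plus strand), and Psme2 next to it at 55587441 to 55591113 (minus strand), in the GENCODE annotation of GRCm38, whose first base for Psme1 lies upstream of the RefSeq start that set the window above. In Ccl5-low Cd4 cells Psme1 read 505 and 498 CPM with sh-NC against 413 and 415 with sh-B7-H3 (1). Its log2 fold change was -0.25 ± 0.04 (adjusted p = 4.37e-05) by edgeR's quasi-likelihood test on UMIs summed per library, with ± giving the SE and Benjamini-Hochberg adjustment over all genes tested, here and for every adjusted p below. Psme2 read 319 and 316 CPM with sh-NC against 238 and 245 with sh-B7-H3 (1) in these cells, a change of -0.37 ± 0.05 (adjusted p = 2.36e-06). On this fitted scale Psme1 fell by 16.05% and Psme2 fell by 22.7%, and their CPM did not overlap between the groups. Here and below, absence of overlap between so few libraries often arises without a difference and is given as description only. The share of all genes without overlap was not computed. They were 2 of 40 members called, both lower; over all genes 3.48% were called lower and 8.06% called in either direction. The member median was -0.04 against 0.00 over all genes, and 10 members had an unadjusted p under 0.05. Neither here nor below is the share of all genes at that unadjusted p given, so such counts are description only.

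In Ccl5-low Cd8 cells Psme1 read 682 and 665 CPM with sh-NC against 532 and 532 with sh-B7-H3 (1), a change of -0.27 ± 0.03 (adjusted p = 4.61e-06). Psme2 read 396 and 392 CPM with sh-NC against 319 and 301 with sh-B7-H3 (1), a change of -0.28 ± 0.04 (adjusted p = 2.35e-05). Here Psme1 fell by 17.1% and Psme2 fell by 17.8%, again without overlap. In this class 4 of 40 members were called lower and 0 higher, against 3.51% of all genes called lower and 7.46% in either direction, with a member median of -0.05 against 0.00. The other pair were Psmd4, a ubiquitin receptor of the regulatory particle (128 and 126 CPM with sh-NC against 114 and 99.7 with sh-B7-H3 (1), -0.20 ± 0.06 (adjusted p = 0.0349)), and Psmd1, its largest scaffold subunit. Psmd1 read 32.7 and 32.02 CPM with sh-NC against 22.9 and 24.9 with sh-B7-H3 (1), a change of -0.36 ± 0.10 (adjusted p = 0.0283). The call for Psmd1 was lost in DESeq2 (adjusted p = 0.18) and when any 1 library was left out (adjusted p = 0.207 and 0.128 without control libraries 1 and 2, and 0.148 and 0.117 without knockdown libraries 1 and 2). The count fell to 2, Psme1 and Psme2, in DESeq2, without control library 1 and without knockdown library 2. Scaled by total UMIs alone it was 11, all lower, against 8.01% of genes.

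In the Ccl5-high cells Psme2 was called in both lineages. Ccl5-high Cd4 cells held Psme2 at 422 and 382 CPM with sh-NC against 287 and 287 with sh-B7-H3 (1), a change of -0.39 ± 0.08 (adjusted p = 0.00578). It was the only member called of 40, against 1.21% of genes called lower and 2.53% in either direction, with a member median of -0.09 against 0.01 and 7 members at an unadjusted p under 0.05. With scaling by total UMIs 4 were called, all lower, against 2.9% of genes. The Psme2 call with TMM was lost without knockdown library 1 (adjusted p = 0.226) and without knockdown library 2 (adjusted p = 0.195). Psme1 read 601 and 552 CPM with sh-NC against 478 and 449.9 with sh-B7-H3 (1) in these cells, with no overlap, but its change of -0.22 ± 0.08 (adjusted p = 0.137) did not pass.

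In Ccl5-high Cd8 cells Psme2 read 367 and 378 CPM with sh-NC against 285 and 279.6 with sh-B7-H3 (1), a change of -0.37 ± 0.05 (adjusted p = 6.14e-07). Psme1 read 626 and 656 CPM with sh-NC against 555 and 564 with sh-B7-H3 (1), a change of -0.16 ± 0.05 (adjusted p = 0.0142). Psme2 fell by 22.5% and Psme1 fell by 10.5%, both without overlap. The Psme1 call was lost in DESeq2 (adjusted p = 0.0596), without control library 2 (0.138) and without knockdown libraries 1 and 2 (0.1 and 0.0683). Psmc3, an ATPase of the ring that unfolds substrates, read 126 and 126 CPM with sh-NC against 95.002 and 97.3 with sh-B7-H3 (1), a change of -0.35 ± 0.08 (adjusted p = 0.000863) that held in 14 of 14 alternatives. Psmd4 read 163 and 150.0 CPM with sh-NC against 122 and 128 with sh-B7-H3 (1), a change of -0.28 ± 0.07 (adjusted p = 0.00384) that was lost in DESeq2 (adjusted p = 0.107), without control library 1 (0.149) and without knockdown library 1 (0.0515). These 4 of 40 members were all lower, where 5.97% of genes were called lower and 11.4% in either direction, and 2 remained in DESeq2 and without knockdown library 1. The member median was -0.01 against 0.00.

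Across these 4 classes, the calls for Psme1 and Psme2 in both Ccl5-low classes and for Psme2 in Ccl5-high Cd8 cells held in 14 of 14 alternatives each. Tests of the difference itself found no member whose knockdown change differed between Ccl5-high and Ccl5-low cells: 0 of 40 were called in Cd4 cells (3.48% of all genes were; 2 members at an unadjusted p under 0.05, 0 called by DESeq2) and 0 of 40 in Cd8 cells (3.36%; 3 members at an unadjusted p under 0.05, 0 by DESeq2, and 1 called without control library 1). For Psme2 the difference was -0.02 ± 0.10 (adjusted p = 0.975) in Cd4 and -0.09 ± 0.06 (adjusted p = 0.557) in Cd8 cells, and for Psme1 0.03 ± 0.09 (adjusted p = 0.954) and 0.10 ± 0.05 (adjusted p = 0.339). Nor did any member's knockdown change differ between Cd8 and Cd4 cells: edgeR called 0 of 40 in Ccl5-low cells (1.31% of genes, 2 members at an unadjusted p under 0.05) and 0 of 40 in Ccl5-high cells (1.35%, 2 members). These lineage tests were added after the data were seen, and DESeq2 was not run on them. The intervals these SEs give do not show that the classes respond alike.

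Of the core particle, 0 of 14 tested alpha and beta subunits were called in any of the 4 classes. This held for edgeR with TMM scaling and for DESeq2. At an unadjusted p under 0.05 stood 3, 2, 3 and 3 of them in Ccl5-low Cd4, Ccl5-high Cd4, Ccl5-low Cd8 and Ccl5-high Cd8 cells. Of all genes edgeR called 8.06, 2.53, 7.46 and 11.4% in either direction in that order, so 0 of 14 does not set the core particle apart. Psmb5 changed by 0.15 ± 0.06 (adjusted p = 0.185) in Ccl5-low Cd4 cells and by -0.04 ± 0.05 (adjusted p = 0.693) in Ccl5-low Cd8 cells. Psmb6, the caspase-like subunit, was higher in both knockdown libraries in both Ccl5-low classes, without passing the test (0.18 ± 0.06 (adjusted p = 0.0849) and 0.15 ± 0.05 (adjusted p = 0.0637)). Psmb7 read 84.2 and 83.9 CPM with sh-NC against 95.2 and 99.9 with sh-B7-H3 (1) in Ccl5-high Cd4 cells, a change of 0.31 ± 0.14 (adjusted p = 0.325). For the Psmd genes, subunits and assembly chaperones of the regulatory particle together, the median change over 14 genes was -0.11, -0.17, -0.14 and -0.06 in the same order of classes, with 4, 3, 1 and 3 genes above 0. Under scaling by total UMIs 1, 1, 6 and 1 of these 14 were called, all lower, against 0, 0, 2 and 1 with TMM, and of the core particle 0, 1, 2 and 1, all lower. That scaling called 4.5, 2.9, 8.01 and 7.66% of all genes lower. Of the 3 immunoproteasome genes 0 were called lower in any class, and Psmb9 rose in Ccl5-high Cd8 cells (0.21 ± 0.05 (adjusted p = 0.00325)).

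**Figure D2:**
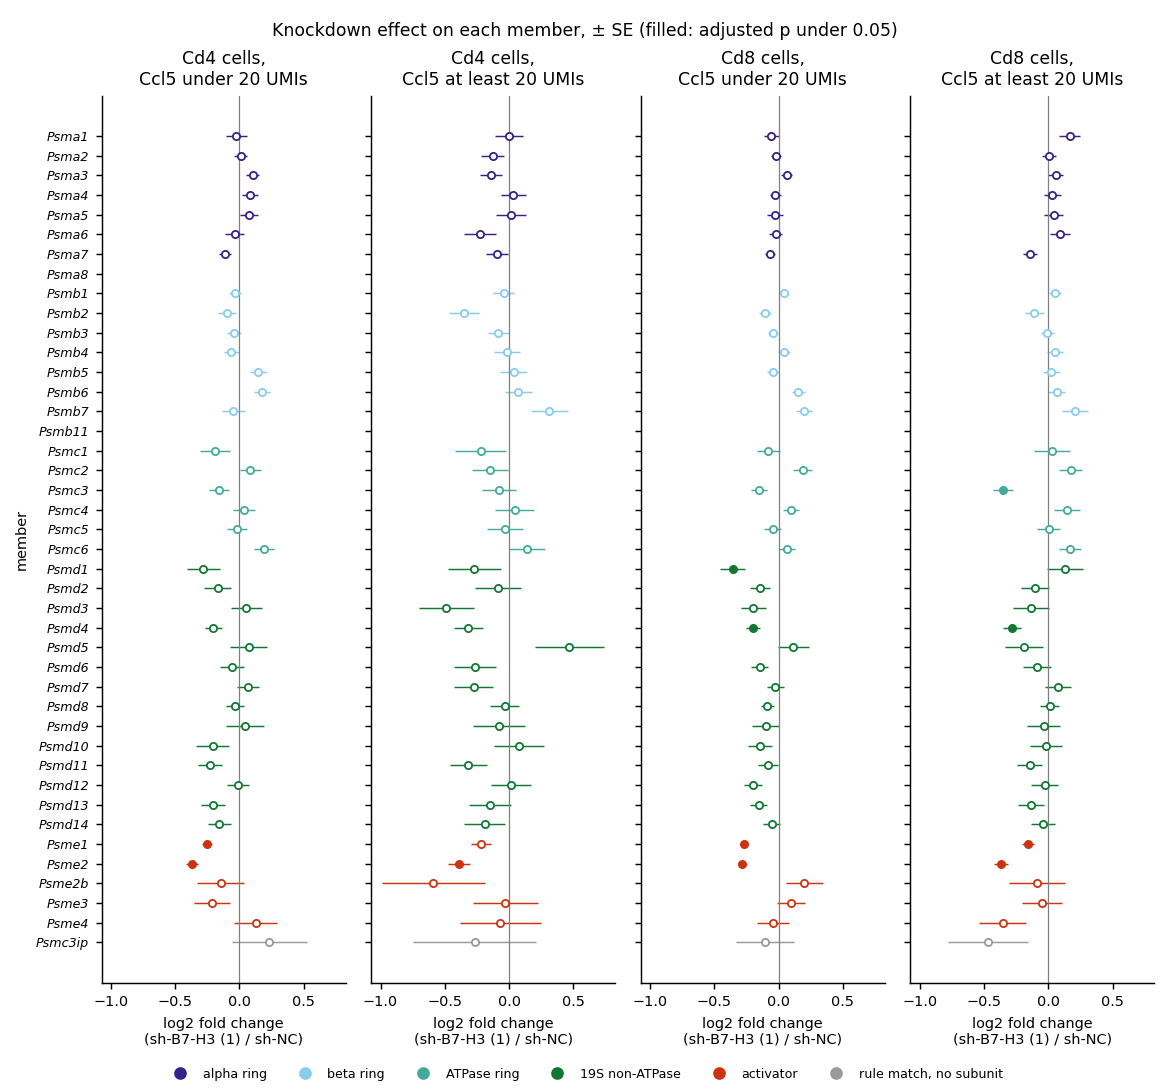
Log2 fold change of each member, sh-B7-H3 (1) against sh-NC (horizontal axis; bars are SE), in the 4 classes of Cd4 and Cd8 cells, with members by role on the vertical axis and calls filled. Psme1 and Psme2 are filled in 3 and 4 of the panels. The alpha and beta ring genes are open in all of them, where 2.53 to 11.4% of all genes were called. Psma8 and Psmb11 have no value because too few UMIs were counted.

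In Foxp3 cells no member was called. Ccl5-low Foxp3 cells read Psme1 at 568 and 568 CPM with sh-NC against 569.9 and 481 with sh-B7-H3 (1) and Psme2 at 427 and 361 CPM with sh-NC against 415 and 338 with sh-B7-H3 (1), so both groups overlapped. The changes were -0.06 ± 0.11 (adjusted p = 0.903) and -0.02 ± 0.12 (adjusted p = 0.982). EdgeR called 0 of 39 members here (1.51% of all genes), with 2 at an unadjusted p under 0.05 and 0 by DESeq2. With Ccl5-high Foxp3 cells 0 of 13 were called (0.922% of genes), with 0 at an unadjusted p under 0.05 and 0 by DESeq2. Whether the Psme2 change differed between Foxp3 and Cd4 cells was tested in the Ccl5-low class and did not pass (0.36 ± 0.14 (adjusted p = 0.601)), where 0 of 40 members were called (0.553% of genes, 4 members at an unadjusted p under 0.05). Of the myeloid markers 5 were tested in Ccl5-low Foxp3 cells, and all 5 were called higher with sh-B7-H3 (1). With 84 to 147 cells per library the SE of Psme2 was 0.12 here, against 0.05 in Ccl5-low Cd4 cells.

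Other measures moved with the groups. The RNA Gm42418, which overlaps ribosomal RNA genes, took 0.48 to 0.61% of UMIs in every class of the control libraries and 2.30 to 4.51% in the knockdown libraries. The calls for Psme1, Psme2, Psmc3 and Psmd1 held in a fit that left it out together with mitochondrial and ribosomal protein genes. Such a fit only takes these genes out and rescales, so the part of Gm42418 was not tested. Mitochondrial genes took 2.16 to 3.51% and 2.85 to 4.11%. The 8 effector markers summed to 182 and 198 CPM with sh-NC against 1406 and 1164 with sh-B7-H3 (1) in Ccl5-low Cd4 cells, and the 6 resting-cell markers to 1696 and 1703 CPM with sh-NC against 1418 and 1395 with sh-B7-H3 (1), so these sums set the groups apart within the Ccl5-low class. In Ccl5-low Cd8 cells the effector markers summed to 749 and 767 CPM with sh-NC against 1203 and 1109 with sh-B7-H3 (1) and the resting markers to 1507 and 1499 CPM with sh-NC against 1237 and 1233 with sh-B7-H3 (1). The 8 effector markers include Ccl5, the gene that drew the classes, so part of each effector sum comes from it. Ccl5 alone took 0.0028 and 0.0026% of UMIs with sh-NC against 0.027 and 0.030% with sh-B7-H3 (1) in Ccl5-low Cd4 cells. In Ccl5-low Cd8 cells these shares were 0.0060, 0.0072, 0.023 and 0.025% in the same order. The 10 myeloid markers, 0 of them without a UMI, summed to between 19.7 and 248 CPM in the Cd4 and Cd8 classes, with the groups overlapping in the Ccl5-low classes and higher in both knockdown libraries in the Ccl5-high classes, and Cd8a and Cd8b1 are at 0 in Cd4 cells by the rule. Free RNA held Psme1 at 572 and 609.7 CPM with sh-NC against 502 and 499 with sh-B7-H3 (1), and Psme2 at 250.7 and 263 CPM with sh-NC against 221 and 287 with sh-B7-H3 (1), where the groups overlapped. The part of these measures in the fall of Psme1 and Psme2 was not tested, and fewer transcripts per cell cannot be told apart from fewer cells carrying them in sums of a class.

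Ccl5-high and Ccl5-low cells were then compared within the same libraries. The counts turned on the scale. As a share of all UMIs most members were higher in Ccl5-high cells: scaled by total UMIs, 27 of 40 rose and 1 fell in Cd4 cells, and 25 rose and 0 fell in Cd8 cells. Of all genes 42.8 and 13.7% did so in Cd4 cells and 53.0 and 13.6% in Cd8 cells. This scaling moved the median of all genes by 0.33 and 0.35 on the log2 scale, and the member medians were 0.36 and 0.25. Ribosomal protein genes took 43.3 to 49.2% of UMIs in Ccl5-low and 27.6 to 36.8% in Ccl5-high Cd4 and Cd8 cells. TMM, the main scaling, centres on the bulk of genes. With TMM 7 members rose and 3 fell in Cd4 cells (6 calls in all without control library 2, knockdown library 1 or knockdown library 2), against 24.9 and 25.1% of all genes, and the member median was 0.02 against -0.01. In Cd8 cells 2 rose and 13 fell, against 27.3 and 27.0%, with a member median of -0.09 against 0.01. Unless said otherwise, the log2 changes below are with TMM, relative to the bulk of genes, whereas CPM remain shares of all UMIs.

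Psmb3, a structural subunit of the beta ring, rose in both lineages and under both scalings. In Cd4 cells it read 235 and 217 CPM with sh-NC against 219.7 and 214 with sh-B7-H3 (1) when Ccl5-low and 407 and 419.5 CPM with sh-NC against 353 and 377 with sh-B7-H3 (1) when Ccl5-high, so no Ccl5-high library overlapped a Ccl5-low one. Scaled like these CPM, by total UMIs, 42.8% of all genes were called higher in Cd4 cells. With TMM the change in Psmb3 was 0.48 ± 0.07 (adjusted p = 4.14e-05) in Cd4 cells and 0.29 ± 0.04 (adjusted p = 0.000182) in Cd8 cells. The alpha ring gene Psma1 (0.41 ± 0.08 (adjusted p = 0.000754)) and Psmd10, an assembly chaperone of the regulatory particle (0.41 ± 0.12 (adjusted p = 0.00951)), rose in Cd4 cells, the latter not without knockdown library 2 (adjusted p = 0.0797). Psmd9, another such chaperone, rose in Cd8 cells (0.28 ± 0.09 (adjusted p = 0.0183)), where its call was lost with no upper gene limit (adjusted p = 0.0676), in DESeq2 (0.0663), without control library 2 (0.0616) and without knockdown library 2 (0.122). It also rose in Cd4 cells, by 31.8% on the fitted scale. Of the core particle in Cd4 cells, 13 of 14 genes were above 0 and 5 were called, all higher (24.9% of all genes were), with 4 in DESeq2 and 13 under total UMIs. The lowest calls in Cd4 cells were Psme2b (-0.84 ± 0.20 (adjusted p = 0.00286)), with its uncertain counts, Psmc6 of the ATPase ring (-0.25 ± 0.08 (adjusted p = 0.0192)) and Psmd4 (-0.19 ± 0.07 (adjusted p = 0.0429)). Scaled by total UMIs, Psmc6 and Psmd4 turned to 0.08 and 0.14. Both were also lost in DESeq2 (adjusted p = 0.0602 and 0.096), with no library block (0.0592 and 0.0787) and without control library 2, knockdown library 1 or knockdown library 2 (adjusted p = 0.0529, 0.0811 and 0.0661 for Psmc6, and 0.0972, 0.188 and 0.107 for Psmd4). Psmd4 was further lost without dividing cells (adjusted p = 0.0784) and with no filter on low counts (0.054).

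In Cd8 cells the PA28 genes were lower in Ccl5-high cells relative to the bulk of genes. Psme2 changed by -0.45 ± 0.05 (adjusted p = 7.73e-06) and Psme1 by -0.35 ± 0.04 (adjusted p = 4.59e-05) with TMM. As a share of all UMIs neither changed past the threshold (-0.11, adjusted p = 0.051, for Psme2 and 0.00, adjusted p = 0.992, for Psme1). Psme1 stood at 682 and 665 CPM in Ccl5-low and 626 and 656 in Ccl5-high Cd8 cells of the control libraries. In the knockdown libraries it went the other way, from 532 and 532 to 555 and 564. The scaffold genes of the regulatory particle Psmd3 (-0.38 ± 0.09 (adjusted p = 0.00288)) and Psmd6 (-0.37 ± 0.06 (adjusted p = 0.000478)) behaved likewise, with -0.03 (adjusted p = 0.748) and -0.02 (adjusted p = 0.801) when scaled by total UMIs. The catalytic genes did not pass in either lineage with TMM: Psmb5 changed by 0.15 ± 0.07 (adjusted p = 0.0808) in Cd4 and -0.10 ± 0.05 (adjusted p = 0.121) in Cd8 cells, Psmb6 by 0.07 ± 0.07 (adjusted p = 0.455) and 0.00 ± 0.05 (adjusted p = 0.989), and Psmb7 by 0.19 ± 0.10 (adjusted p = 0.127) and 0.02 ± 0.07 (adjusted p = 0.842). As a share of all UMIs all 3 passed and were higher, at 0.49 (adjusted p = 0.000107), 0.40 (0.000545) and 0.52 (0.000549) in Cd4 cells and 0.25 (0.000974), 0.34 (8.15e-05) and 0.36 (0.000658) in Cd8 cells, as did 7 of 7 tested beta ring genes in each lineage, under a scaling that called 42.8 and 53.0% of all genes higher. No member's knockdown change was called as different between the Ccl5 classes of Foxp3 cells either (edgeR 0 of 37 called, 0.0% of genes, 1 member at an unadjusted p under 0.05, 0 by DESeq2). In Foxp3 cells, with 6 to 13 Ccl5-high cells per library, Psmc4 of the ATPase ring was the single call of 37 (1.88% of genes called lower), at -1.87 ± 0.49 (adjusted p = 0.0236). It was lost in 7 of 13 alternatives, among them those without control library 2 (adjusted p = 0.128), knockdown library 1 (0.14) and knockdown library 2 (0.103).

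**Figure D3:**
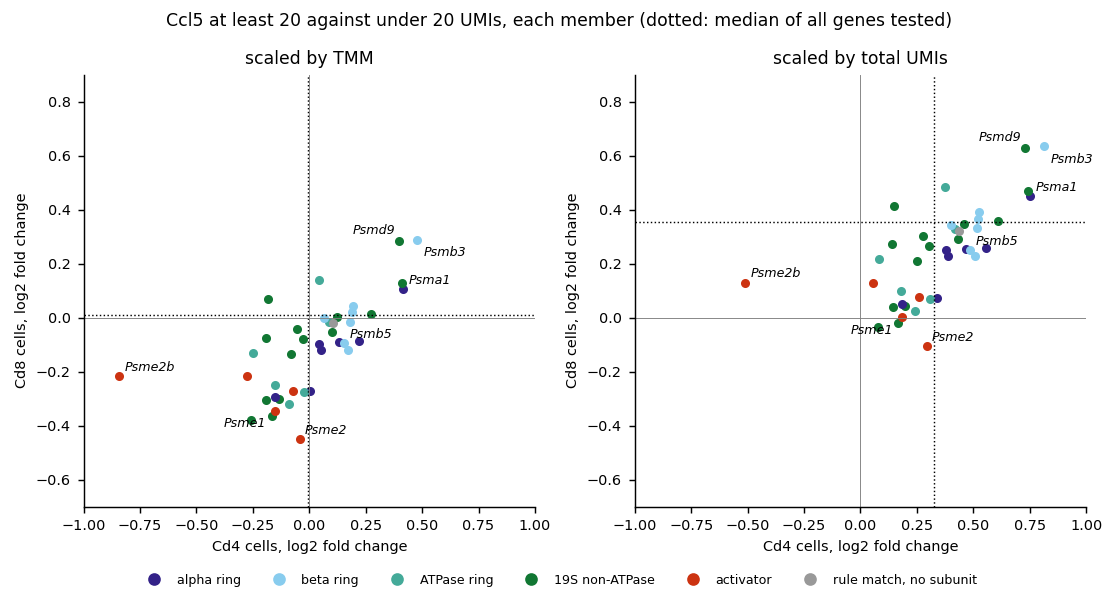
Log2 fold change of each member between Ccl5-high and Ccl5-low cells, in Cd4 cells (horizontal axis) and Cd8 cells (vertical axis), scaled by TMM (left) and by total UMIs (right); each point is a gene colored by role and dotted lines are the medians of all genes tested. Under TMM 7 members rose and 3 fell in Cd4 cells and 2 rose and 13 fell in Cd8 cells; under total UMIs the same comparison gave 27 and 1 in Cd4 cells and 25 and 0 in Cd8 cells, so the balance of calls in Cd8 cells turned with a scaling that also moved the median of all genes, while Psmb3 rose under both.

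The threshold of 20 Ccl5 UMIs split the classes, and levels just outside and just inside it are given with no test. Cd4 cells with 15 to 19 Ccl5 UMIs (21 cells over all libraries) held members at 6134 CPM and those with 20 to 24 (22 cells) at 5346. In Cd8 cells the neighbours stood at 4837 (56 cells) and 4752 (58 cells), and in Foxp3 cells at 6046 (22 cells) and 6598 (8 cells). Cells with a UMI of Mki67, Top2a or Birc5, genes of dividing cells, were 3.91 to 4.62% of Ccl5-low and 24.5 to 33.0% of Ccl5-high Cd4 cells, and 2.80 to 5.18% and 14.7 to 19.9% of Cd8 cells. Without them 4 members rose and 3 fell in Cd4 cells and 2 rose and 11 fell in Cd8 cells, with TMM, against 23.2 and 23.3% of genes in Cd4 and 26.1 and 25.6% in Cd8 cells. Psmd4 was no longer among those that fell in Cd4 cells. The median depth was 8598 to 9275 UMIs in Ccl5-low and 5869 to 6062 in Ccl5-high Cd8 cells, so a fixed count of Ccl5 UMIs is a higher share in the shallower cells. Classes drawn by share of UMIs gave 6 and 3 in Cd4 and 2 and 17 in Cd8 cells, against 24.8 and 25.2% and 27.7 and 28.4% of genes.

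**Figure D4:**
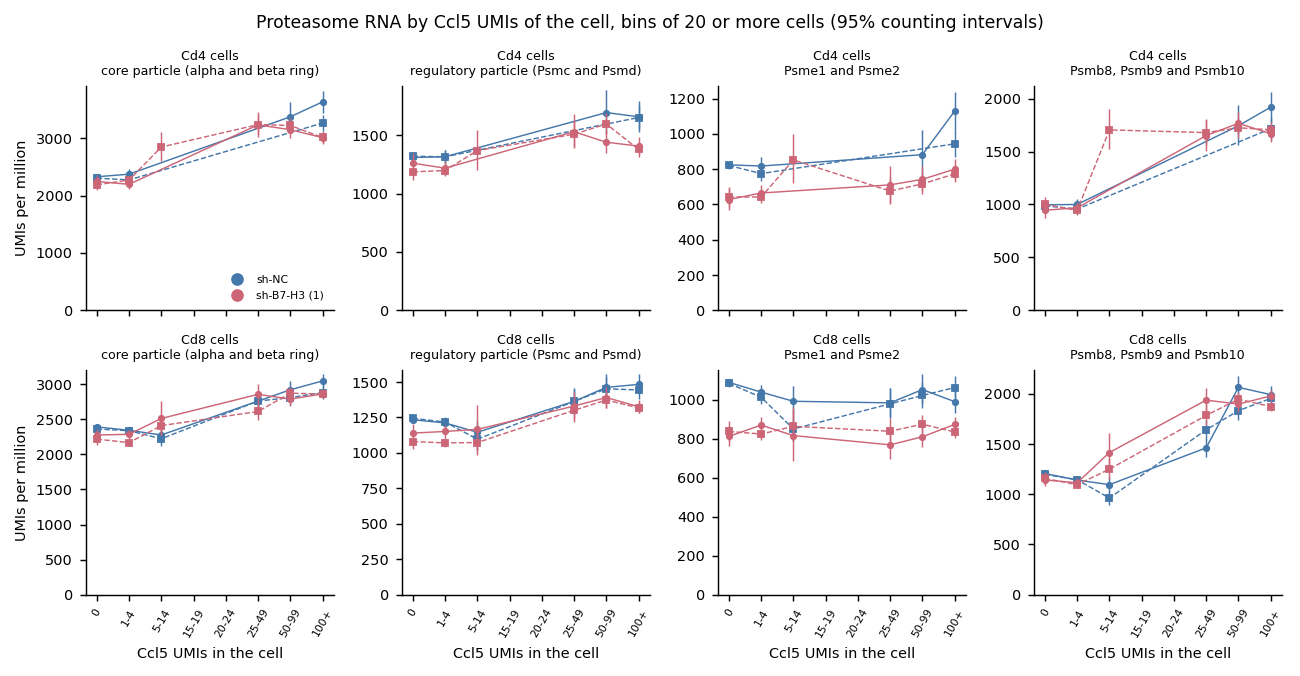
Summed level of the core particle, of the regulatory particle (Psmc and Psmd), of Psme1 with Psme2 and of Psmb8, Psmb9 and Psmb10, in CPM (vertical axes, from 0), by the Ccl5 UMIs of the cell (horizontal axis), for Cd4 cells (top) and Cd8 cells (bottom); lines are the 4 libraries (solid, library 1; dashed, library 2), bars are 95% intervals of counting error only, and bins under 20 cells are not drawn. Psme1 with Psme2 lies lower in both sh-B7-H3 (1) libraries at 0 and at 1 to 4 Ccl5 UMIs in both lineages, and Psmb8, Psmb9 and Psmb10 stand higher in every bin drawn from 25 Ccl5 UMIs up than at 0, in all 4 libraries.

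Whether the Ccl5 classes differed by the same amount in both lineages was tested with lineage and class in a single model, a test added after the data were seen. Its only alternatives were no doublet removal and scaling by total UMIs. DESeq2 and leaving out a library were not run on it. Of 40 members 5 were called, all with a lower change in Cd8 than in Cd4 cells, against 4.28% of genes called lower and 9.89% in either direction. The member median was -0.17 against 0.01 over all genes. They were Psme2 (-0.43 ± 0.07 (adjusted p = 0.00131)), Psma4 and Psma7 of the alpha ring (-0.33 ± 0.08 (adjusted p = 0.0114) and -0.30 ± 0.07 (adjusted p = 0.017)), and Psmb2 and Psmb5 of the beta ring (-0.31 ± 0.09 (adjusted p = 0.0382) and -0.27 ± 0.08 (adjusted p = 0.0377)). For Psme2 the change was -0.04 ± 0.06 in Cd4 cells, and for Psma4 0.22 ± 0.07 in Cd4 and -0.09 ± 0.05 in Cd8 cells. Of the 14 core genes, 0 had a higher change in Cd8 cells. Scaled by total UMIs Psme2, Psma4 and Psma7 were still called, and Psmb5 (adjusted p = 0.0939) and Psmb2 (adjusted p = 0.0887) did not.

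The exchange partners of the catalytic genes were set against them as ratios of UMIs within each library, which no scaling touches. The sum of Psmb8, Psmb9 and Psmb10 over that of Psmb5, Psmb6 and Psmb7 was 3.02 and 3.04 with sh-NC against 2.85 and 2.92 with sh-B7-H3 (1) in Ccl5-low Cd4 cells. In Ccl5-high Cd4 cells it was 3.86, 3.70, 3.63 and 3.65 in the same order. In Ccl5-low Cd8 cells it was 3.63, 3.66, 3.60 and 3.42, and in Ccl5-high Cd8 cells 4.35, 4.90, 4.70 and 4.66. The ratio was higher in Ccl5-high cells in 4 of 4 libraries of each lineage, by 0.33 ± 0.03 in Cd4 and 0.38 ± 0.08 in Cd8 cells on the log2 scale (mean ± SD, n = 4; in a two-sided exact sign-flip permutation test 2 of 16 sign patterns were as far from 0, the fewest that 4 libraries allow, so it cannot pass 0.05). By pair, Psmb8 to Psmb5 was higher by 0.34 ± 0.05 and 0.52 ± 0.06 and Psmb9 to Psmb6 by 0.47 ± 0.14 and 0.43 ± 0.19, in 4 of 4 libraries each. Psmb10 to Psmb7 was not, at -0.01 ± 0.26 (higher in both control and lower in both knockdown libraries) and -0.10 ± 0.16 (higher in 1 of 4). Between control and knockdown the exact permutation test has 6 splits, of which 2 are always as extreme, so no p is given.

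**Figure D5:**
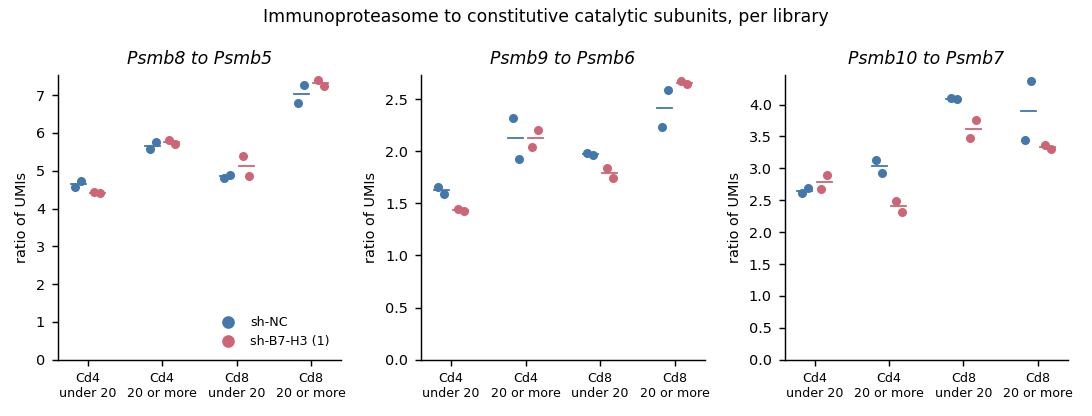
Ratio of UMIs of each immunoproteasome gene to the constitutive gene whose place it takes (vertical axes, from 0) by class of cell (horizontal axis); each point is 1 library and each short line the mean of a group. Psmb8 to Psmb5 and Psmb9 to Psmb6 are higher in Ccl5-high than in Ccl5-low cells in all 4 libraries of both lineages, whereas Psmb10 to Psmb7 is higher in 2 of 4 libraries in Cd4 and 1 of 4 in Cd8 cells.

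Between lineages, both PA28 genes were higher in Cd8 than in Cd4 cells when Ccl5-low. In Ccl5-low cells Psme1 was higher in Cd8 cells by 0.57 ± 0.03 (adjusted p = 1.35e-10) and Psme2 by 0.50 ± 0.04 (adjusted p = 8.43e-09), in 4 of 4 libraries. These calls kept their direction and side of the threshold in 7 of 7 alternatives, as did Psma7 (0.32 ± 0.04 (adjusted p = 2.22e-06)). Psmb5 was higher by 0.24 ± 0.04 (adjusted p = 0.000456) with TMM and by 0.07 (adjusted p = 0.283) when scaled by total UMIs. With TMM 15 of 40 members were called higher and 1 lower, against 15.9 and 15.8% of all genes, with a median of 0.10 against -0.01. Scaled by total UMIs, which moved the median of all genes to -0.17, 3 were higher and 9 lower, against 7.49 and 34.5% of genes. The 1 lower with TMM was Psme2b (-0.27 ± 0.09 (adjusted p = 0.0371)), lost in 4 of 7 alternatives. In Ccl5-high cells Psme1 was higher in Cd8 cells by 0.37 ± 0.06 (adjusted p = 0.000217) and Psma1 was lower at -0.23 ± 0.08 (adjusted p = 0.0378), the only 2 of 40 called (9.08% of genes were called higher and 8.32% lower), and with scaling by total UMIs 1 was higher and 9 lower, against 5.44 and 16.2% of genes. Psma1 was lost in DESeq2 (adjusted p = 0.11), and Psme2 differed by 0.09 ± 0.06 (adjusted p = 0.384) there. The 3 immunoproteasome genes were higher in Cd8 cells in both classes, with Psmb10 at 0.59 ± 0.04 (adjusted p = 5.77e-10) in Ccl5-low cells.

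Foxp3 cells were set against Cd4 cells in the same way. In the Ccl5-low class 4 of 40 members were higher and 0 lower, against 17.7 and 16.5% of genes: Psmd8, a lid subunit (0.32 ± 0.09 (adjusted p = 0.00467)), Psmc3 (0.32 ± 0.09 (adjusted p = 0.00623)), Psma4 (0.23 ± 0.08 (adjusted p = 0.03)) and Psma2 (0.21 ± 0.07 (adjusted p = 0.0224)). The Psma4 call was lost in cells of 4000 to 12000 UMIs (adjusted p = 0.0504) and with no filter on low counts (0.204). Without doublet removal more members were called, as given in the closing section. Psmd8 read 114 and 113 CPM with sh-NC against 114 and 105 with sh-B7-H3 (1) in Cd4 cells and 161 and 203 CPM with sh-NC against 195 and 144 with sh-B7-H3 (1) in Foxp3 cells, with no Foxp3 library as low as any Cd4 library. Both sets of CPM are shares of all UMIs, without TMM, a scale on which most genes stood higher in Foxp3 cells. Scaled by total UMIs 29 were higher and 0 lower, against 38.8 and 6.16% of genes, with the median of all genes at 0.32. In the Ccl5-high class Psmc4 was the single member called of 38 (-1.59 ± 0.52 (adjusted p = 0.0495), 3.24% of genes lower), and 6 of 7 alternatives lost it.

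Control and knockdown were also compared with the Ccl5 classes put together. Of Cd4 cells 7.13 and 9.53% were Ccl5-high with sh-NC against 47.2 and 44.9% with sh-B7-H3 (1), and of Cd8 cells 14.7 and 18.6% against 62.4 and 58.4%. Over all Cd4 cells 5 of 40 members were higher and 7 lower (37.0% of genes were called in either direction; the Ccl5-low and Ccl5-high classes alone had given 2 and 1 member calls). The highest were Psmb5, Psmb6 and Psma4 (0.17 ± 0.05 (adjusted p = 0.0119), 0.17 ± 0.05 (adjusted p = 0.0117) and 0.16 ± 0.05 (adjusted p = 0.0158)). The lowest were Psme2b (-0.54 ± 0.15 (adjusted p = 0.00988)), with its uncertain counts, Psme2 (-0.40 ± 0.04 (adjusted p = 1.87e-06)) and Psmd4 (-0.32 ± 0.05 (adjusted p = 0.000176)), followed by Psme1 (-0.31 ± 0.04 (adjusted p = 9.03e-06)). Psme2b was lost in DESeq2 (adjusted p = 0.0588), without control library 2 (0.0586) and without knockdown library 1 (0.0738), and Psma4 in DESeq2 (0.0953), without control library 1 (0.143) and without knockdown library 2 (0.0558). DESeq2 called 3 members, all lower, and with scaling by total UMIs 10 were higher and 4 lower, against 24.7 and 12.6% of genes. EdgeR called 5 without control library 2 and 7 without knockdown library 2. Psmb5 was lost in DESeq2 and without those libraries (adjusted p = 0.0784, 0.0913 and 0.106), and Psmb6 in DESeq2 and without control library 1 or knockdown library 1 (adjusted p = 0.0819, 0.076 and 0.0534). Over all Cd8 cells 3 were higher and 13 lower (42.8% of genes were called in either direction), with Psme1 at -0.38 ± 0.04 (adjusted p = 7.38e-10) and Psme2 at -0.49 ± 0.04 (adjusted p = 7.54e-12). Psmd3 also fell (-0.33 ± 0.07 (adjusted p = 0.000458)), and Psmb7 (0.21 ± 0.05 (adjusted p = 0.00233)), Psmc2 of the ATPase ring (0.17 ± 0.06 (adjusted p = 0.0146)) and Psmb6 (0.11 ± 0.04 (adjusted p = 0.034)) were the higher. Psmc2 was lost in 4 of 12 alternatives and Psmb6 in 7 of 12, DESeq2 among them for both (adjusted p = 0.0861 and 0.139). With scaling by total UMIs 9 were higher and 7 lower, against 28.3 and 14.5% of genes, so the balance of calls depends on the scaling. DESeq2 called 1 higher and 10 lower, and leaving out knockdown library 2 lowered the count to 10 in all. In Foxp3 cells edgeR called 0 of 39 members (1.21% of genes, 2 members at an unadjusted p under 0.05, 0 by DESeq2). This comparison was added after the data were seen and mixes the change within classes with the change in their shares.

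Genes that act with the proteasome were counted from lists of names, in the comparison of Ccl5 classes that called 24.9% of all genes higher and 25.1% lower in Cd4 cells and 27.3 and 27.0% in Cd8 cells. Their values are with TMM alone, so a rise or fall is relative to the bulk of genes. Scaling by total UMIs, which moved the median of all genes up in this comparison, and the other alternatives were not examined for them. Of the 3 immunoproteasome genes, Psmb8 and Psmb9 rose in Ccl5-high cells of both lineages (0.49 ± 0.06 (adjusted p = 2.33e-05) and 0.43 ± 0.04 (adjusted p = 2.54e-06) for Psmb8), and Psmb10 did not pass. Of 9 tested subunits outside the rule and assembly factors, the assembly chaperones Psmg1 and Psmg4 fell in both lineages (Psmg1 -2.39 ± 0.19 (adjusted p = 2.85e-07) in Cd4 and -1.52 ± 0.11 (adjusted p = 4.83e-07) in Cd8 cells), Pomp, which guides core assembly, fell in Cd8 cells (-0.17 ± 0.05 (adjusted p = 0.0109)), and Ecpas, which binds proteasomes, rose there (0.66 ± 0.09 (adjusted p = 9.63e-05)). Of 6 regulators of proteasome genes, the transcription factor gene Nfe2l1 rose (0.82 ± 0.16 (adjusted p = 0.000701) in Cd4 and 0.49 ± 0.09 (adjusted p = 0.000594) in Cd8 cells), Nfe2l2 fell (-1.66 ± 0.14 (adjusted p = 5.62e-07) and -0.41 ± 0.10 (adjusted p = 0.00531)), and Sel1l rose in Cd4 cells. Of 18 genes of ubiquitin supply and delivery 5 rose and 5 fell in Cd4 cells, and 6 rose and 6 fell in Cd8 cells, near the shares of all genes given above.

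Some genes of these lists were also called against the knockdown, where 2.53 to 11.4% of all genes were called. The alternatives, DESeq2 and leaving out a library among them, were not examined for these calls either. In Ccl5-low Cd4 cells Sem1, a small subunit of the regulatory particle, rose (0.15 ± 0.04 (adjusted p = 0.0293)), while Rps27a, a ribosomal protein gene, fell (-0.13 ± 0.02 (adjusted p = 2.62e-05)). In Ccl5-low Cd8 cells Nfe2l2 (-0.38 ± 0.11 (adjusted p = 0.0448)) and Usp14, a deubiquitinase of the proteasome (-0.34 ± 0.10 (adjusted p = 0.0485)), fell. In Ccl5-high Cd8 cells Ubb, a ubiquitin gene, rose (0.16 ± 0.04 (adjusted p = 0.00228)) and Rps27a fell.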

How the data were processed

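RNA and antibody tags were read from 4 libraries of sorted CD3+ cells, 2 per group, made with 10x Genomics 3′ v3.1 chemistry. The authors aligned reads to mm10 and counted UMIs with Cell Ranger, and deposited the counts per gene and barcode, not normalized. The submitters' processing notes also name Seurat 4.0.0. The antibody tags were not used.

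Called barcodes with 200 to 3000 genes and at most 5% mitochondrial UMIs were kept. Doublets were scored against simulated ones (2000 variable genes, 30 components, 50 neighbors, 2 simulated per cell) and removed within each library. Raw counts were summed per library and class, and tested with edgeR 4.0.16 (quasi-likelihood test, TMM scaling, filterByExpr, library as a block where classes or lineages were compared) in R 4.3.3, with Benjamini-Hochberg adjustment over all genes and calls at an adjusted p under 0.05. Alternatives were DESeq2 1.42.0, no filter on low counts, a replicate block, no library block, no doublet removal, no upper gene limit, cells of 4000 to 12000 UMIs, no dividing cells, Ccl5 classes by share of UMIs, each library left out, a fit without Gm42418, AY036118, mitochondrial and ribosomal protein genes and, added later, scaling by library size alone. Counting intervals cover counting error only. Scripts were tested on simulated data in which known genes had been changed.

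Named were the catalytic genes, Psme1 and Psme2, and in each comparison the 3 highest and 3 lowest called members. Other called members are named where 5 or fewer were called or where they are singled out after their values were seen. The members and lists were chosen with earlier results of these data known. Of the listed genes Paaf1 was not used here, and some results of the ubiquitin list are not reported here. Promoter sequences were not used here for Psma8, Psmb1, Psmb2, Psmb7, Psmc3, Psmd3 and Psmd7.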

Additional observations from a re-analysis of the deposited data

Results flagged for a closer look

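The change between Ccl5-high and Ccl5-low cells differed between Cd8 and Cd4 cells for 5 of 40 members, by a test of the difference itself (edgeR's quasi-likelihood test, Benjamini-Hochberg adjustment over all genes). Of all genes 9.89% were called in either direction and 4.28% lower. On the log2 scale the change in Cd8 cells minus that in Cd4 cells was -0.295 for Psma7, -0.306 for Psmb2, -0.326 for Psma4, -0.266 for Psmb5 and -0.426 for Psme2. Psmb2 was lost without doublet removal (adjusted p = 0.0622), and Psmb2 and Psmb5 with scaling by library size alone (0.0887 and 0.0939). No other alternative was run on this test.

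The ratio of Psmb10 to Psmb7 UMIs in Cd4 cells was higher in Ccl5-high cells of both control libraries (by 0.27 and 0.12 on the log2 scale) and lower in those of both knockdown libraries (-0.10 and -0.32), so the knockdown mean lay at -0.403 from the control mean. The difference was not tested. In Foxp3 cells the ratio of the 3 immunoproteasome genes to Psmb5, Psmb6 and Psmb7 was lower in Ccl5-high cells of both control libraries (-0.31 and -0.20) and higher in those of both knockdown libraries (0.27 and 0.24), a difference of 0.509 that rests on 6 to 13 Ccl5-high cells per library and was not tested. Both ratios were picked, out of every ratio and lineage examined, because control and knockdown libraries differed in sign. The pattern of signs was thus the rule of selection and not a result.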

How the results depend on the processing

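Of the alternatives for single genes 465 kept their direction and side of the threshold, 82 lost the call and 3 turned. The counts of called members in this section stand without the share of all genes called in the same fit. A changed count may therefore only follow a change in calls over all genes. Scaled by library size alone, Psmc6 and Psmd4 between the Ccl5 classes of Cd4 cells turned to 0.084 and 0.14, and Psme1 in Cd8 cells to 0.00059. That scaling gave 4 called members for the knockdown in Ccl5-high Cd4 cells and 11 in Ccl5-low Cd8 cells, 28 and 25 between the Ccl5 classes of Cd4 and Cd8 cells and 0 of Foxp3 cells, 10 for Cd8 against Cd4 in Ccl5-high cells, 29 and 0 for Foxp3 against Cd4 in Ccl5-low and Ccl5-high cells, and 3 for the class effect between lineages. DESeq2 called 2 for the knockdown in each Ccl5 class of Cd8 cells, 3 over all Cd4 cells, 1 for Cd8 against Cd4 in Ccl5-high cells, and 0 for the Ccl5 classes of Foxp3 cells and for Ccl5-high Foxp3 against Cd4 cells. Without doublet removal the counts were 2 for the knockdown in Ccl5-high Cd4 cells, 8 for Foxp3 against Cd4 in Ccl5-low cells and 0 in Ccl5-high cells, and 0 between the Ccl5 classes of Foxp3 cells. The knockdown difference of the log2 immunoproteasome ratio was then -0.044 in Ccl5-low Cd4, 0.15 in Ccl5-low Foxp3 and 0.43 in Ccl5-high Foxp3 cells. Without an upper gene limit both Foxp3 counts (Ccl5 classes, and Ccl5-high against Cd4) were 0, and the latter was also 0 within 4000 to 12000 UMIs and without dividing cells. No filter on low counts gave 1 for Cd8 against Cd4 in Ccl5-high cells and 1 for the difference of the knockdown effect between Ccl5 classes of Cd8 cells.

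Leaving out a library gave 0 to 2 called members for the knockdown in Ccl5-high Cd4 cells, 2 to 4 in Ccl5-low and 2 to 5 in Ccl5-high Cd8 cells, 5 to 9 over all Cd4 and 10 to 14 over all Cd8 cells, 6 to 7 between the Ccl5 classes of Cd4 and 0 to 1 of Foxp3 cells, and 0 to 1 for the difference of the knockdown effect between the classes of Cd8 cells. The knockdown difference of the log2 immunoproteasome ratio in Ccl5-high Cd8 cells ranged from -0.067 to 0.11 around 0.02. With groups of 2, the lone library of a group is then assumed to vary like the other group. Replicate numbers did not pair the libraries (correlation of deviations -0.087 to 0.025 in the 6 classes). With the replicate number as a block 2 members were called in Ccl5-low Cd4, 1 in Ccl5-high Cd4, 6 in Ccl5-low Cd8 and 4 in Ccl5-high Cd8 cells. Foxp3 cells had 6 to 13 Ccl5-high cells per library.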
